A study of Saccharomyces cerevisiae with 255 samples.

Results

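Puf3 is a yeast mRNA-binding protein of the Pumilio family, and this report describes the strain in which its RNA-binding domain (RBD) was deleted. The strain, Puf3 ΔRBD, was profiled in 3 libraries, numbered 1, 3 and 4, of the 255 libraries of the series, which were chosen by their strain label. They were set against all 12 libraries of intact Puf3, 7 libraries of Puf3-dPup2 and 4 libraries of the nontagged C-Swat control, and the values of 3 libraries of Puf3 Δnon-RBD are given beside them. The method is RNA tagging, in which the RBP is fused to Pup-2, a poly(U) polymerase from C. elegans that adds Us to the 3′ end of the mRNAs it is brought to.

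All strains are haploid BY4741 yeast, grown exponentially in synthetic complete medium with glucose. In Puf3 ΔRBD, the PUF3 gene was replaced by a version that lacks the RBD and is fused to active Pup2. The intact strain carries full-length Puf3 fused to active Pup2, Puf3-dPup2 carries full-length Puf3 fused to catalytically dead Pup2, and C-Swat carries Puf3 without Pup2. Puf3 Δnon-RBD keeps the RBD, lacks the rest of Puf3 and is fused to active Pup2. Intact Puf3 came from 2 clones and Puf3-dPup2 likewise, whereas the titles of Puf3 ΔRBD name no clone, and the labels give no batch. The labels do not say whether libraries came from separate cultures, so p-values measure the spread between libraries, which may be technical. The amount of Puf3 ΔRBD protein was not analysed here.

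The RBD of Puf3 is built of Pumilio repeats, each of which contacts a base of the RNA. Intact Puf3 is known to bind UGUANAUA in the 3′ UTR of nuclear-encoded mRNAs for mitochondrial proteins, most of all those of mitochondrial translation, import and cytochrome c oxidase assembly. In glucose it recruits the deadenylation machinery and promotes the decay of these mRNAs.

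The motif TGTANATA was searched on the strand of the gene within 300 nt after the stop codon in R64, the build of the files. It was found in 972 of 5944 genes (16.4%), and in 838 of the 4519 genes expressed at 16 RPM or more, called motif genes below. The sites below are shown because they carry the comparison, each as 24 nt with the motif in capitals. COX17, TUF1, HSP10, TIM10, MRPL37 and TOM20 had the motif and were tagged by intact Puf3, and the last 2, ADE6 and IMD2, had the motif and no tagged read in intact Puf3.
COX17: ccatttctTGTATATAtaagaata
TUF1: tttatacgTGTAAATAaagtgcca
HSP10: tatgtaccTGTAAATAggccatta
TIM10: tcatatccTGTATATAcaagtaac
MRPL37: ggtatcctTGTAAATAaatatgtg
TOM20: ttttactcTGTATATAgccctata
ADE6: aaatagtaTGTATATAtatatata
IMD2: gaaataagTGTATATAaattgagt
In this order the sites lie at chrXII:131158-131181 on the minus strand, chrXV:685424-685447 on the plus strand, chrXV:370454-370477 on the minus strand, chrVIII:115501-115524 on the minus strand, chrII:741641-741664 on the plus strand, chrVII:644636-644659 on the plus strand, chrVII:611752-611775 on the minus strand and chrVIII:556186-556209 on the plus strand. All follow the stop codon, where the 3′ UTR lies, and the motif starts 32 to 227 nt after it.

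The Puf3 ΔRBD libraries held 536296, 935050 and 763753 reads, against 495081 to 2241490 in intact Puf3, 501091 to 2917011 in Puf3-dPup2 and 220727 to 2583786 in C-Swat. Genes of MATa cells such as MFA1 and STE2 were expressed in all libraries, and the MATalpha genes MF(ALPHA)1 and STE3 stayed at or under 15.7 RPM. Of the genes deleted in whole or in part in BY4741, LEU2, MET17 and URA3 were at or under 6.22 RPM, except that URA3 reached 49.8 to 78.5 RPM in C-Swat, and HIS3 was at 117 to 667 RPM. Replicate 1 of Puf3 ΔRBD stood apart: its log2 expression profile correlated at r = 0.82 with replicates 3 and 4, which correlated at 0.97 with each other (across genes, which are not independent). Its chi-square per degree of freedom was 18.8 and 17.05 with these libraries, against 3.84 between them, so no library was a repeat of another.

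Tagging fell in Puf3 ΔRBD relative to intact Puf3. Tagged reads, those with 4 to 13 Us after the poly(A) tail, made up 0.0134%, 0.0138% and 0.0120% of reads in Puf3 ΔRBD, against 0.344% to 1.71% with a median of 0.480% in intact Puf3. Every Puf3 ΔRBD library was thus below every intact library. The means were 0.0131% ± 0.00092 in Puf3 ΔRBD and 0.622% ± 0.373 in intact Puf3 (SD, n = 3 and 12), a 47.5-fold difference (exact permutation test, two-sided, p = 0.0044, the smallest this design allows). Adjusted over the 24 library-level tests (8 measures against 3 strains), p was 0.0176, and the same adjusted value was obtained for the other 5 measures that separated all libraries of Puf3 ΔRBD and intact Puf3.

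Summed over all tagged lengths, the level left in Puf3 ΔRBD lay within the range of the strains without active Pup2. Puf3-dPup2 had 0.00812% to 0.0191% with a mean of 0.0133% ± 0.0038 (SD, n = 7), a range that encloses the values of Puf3 ΔRBD (exact permutation test, p = 0.933, adjusted 0.933). C-Swat had 0.00743% to 0.0344% (mean 0.0211% ± 0.0117, SD, n = 4; exact permutation test, p = 0.40, adjusted 0.52, with a smallest possible p of 0.0571). Over all libraries, Puf3 ΔRBD had 293 tagged of 2235099 reads (95% Wilson interval 0.0117% to 0.0147%), and Puf3-dPup2 1420 of 11420283 (0.0118% to 0.0131%). These intervals, and the limits given below for a count of 0, cover counting error only.

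The fold difference was 289 over the genes with the motif. Motif genes had 5 tagged of 71829, 23 of 139481 and 17 of 112630 reads in the 3 Puf3 ΔRBD libraries, which is 0.00696%, 0.0165% and 0.0151%. In intact Puf3 their tagged share was 2.11% to 9.09% with a median of 3.001%. The groups did not overlap, and the mean was 0.0128% ± 0.0051 in Puf3 ΔRBD and 3.72% ± 1.91 in intact Puf3 (exact permutation test, p = 0.0044, adjusted 0.0176). Puf3-dPup2 had 0.0187% ± 0.0084 over the same genes (exact permutation test, p = 0.317, adjusted 0.475) and C-Swat 0.0246% ± 0.0120 (exact permutation test, p = 0.229, adjusted 0.366).

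Genes without the motif also carried fewer tagged reads. Their share was 0.0122% ± 0.0012 in Puf3 ΔRBD and 0.105% ± 0.078 in intact Puf3 (exact permutation test, p = 0.0044, adjusted 0.0176), an 8.65-fold difference, and 0.0127% ± 0.0035 in Puf3-dPup2. Motif genes received 6.94%, 17.8% and 18.5% of the tagged reads in Puf3 ΔRBD, against 77.9% to 89.8% in intact Puf3. They held 13.4%, 14.9% and 14.7% of all reads in the same Puf3 ΔRBD libraries. In the plot of the tagged share by library, Puf3 ΔRBD lies with both controls in both classes of genes.

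**Figure D1:**
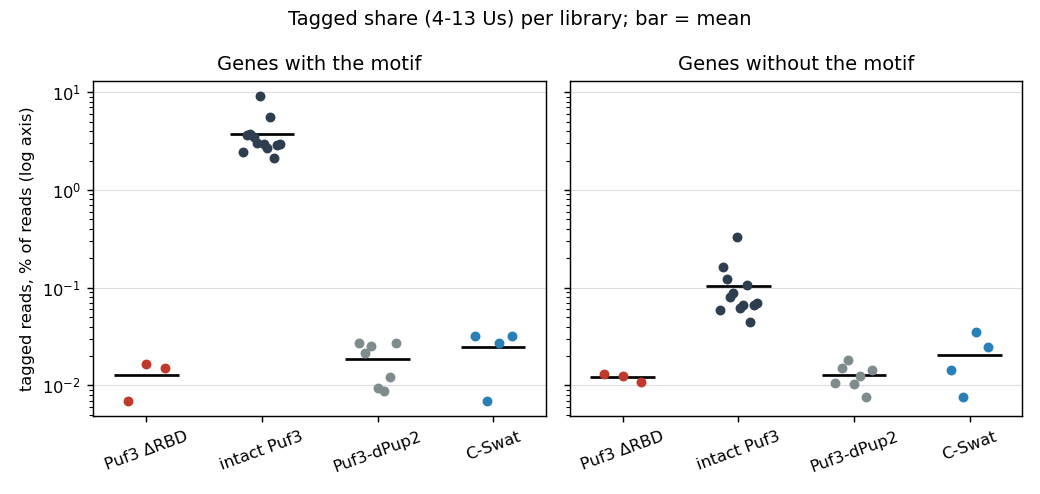
Tagged reads as percent of reads (log axis) over expressed genes with and without TGTANATA, 1 point per library, with bars at the mean of each strain. Puf3 ΔRBD sits near 0.01% in both panels beside Puf3-dPup2 and C-Swat, and intact Puf3 sits at 2.11% to 9.09% over motif genes.

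The 232 genes with TGTAAATA as first motif had 0.0179% ± 0.0114 in Puf3 ΔRBD and 8.84% ± 2.93 in intact Puf3. Genes with TGTATATA (415 genes) had 0.0141% ± 0.0037 and 2.42% ± 1.72, those with TGTACATA (133 genes) 0.0070% ± 0.0083 and 1.91% ± 1.34, and those with TGTAGATA (58 genes) 0.0060% ± 0.0054 and 0.121% ± 0.087, with Puf3 ΔRBD given first. A C that lies 2 bases before the motif marked the strongly tagged genes of intact Puf3. The 234 genes with this C had 0.0155% ± 0.0157 in Puf3 ΔRBD and 10.7% ± 4.0 in intact Puf3, and the 604 genes without it had 0.0117% ± 0.0046 and 1.03% ± 0.72. With both features combined, the share in Puf3 ΔRBD was 0.0224% ± 0.0314 for TGTATATA with the C (91 genes), against 10.7% in intact Puf3. TGTAAATA with the C (98 genes) had 0.0155% ± 0.0137, against 14.7%. Without the C, TGTAAATA (134 genes) had 0.0201% ± 0.0108, against 2.79%, and TGTATATA (324 genes) 0.0125% ± 0.0016, against 0.883%. The distance of the motif from the stop codon went with a similar pattern, with 0.0146% in Puf3 ΔRBD and 5.80% in intact Puf3 at 1 to 150 nt (676 genes), and 0.00998% and 0.475% beyond 150 nt up to 300 nt (162 genes).

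Binding reliability asks whether the same genes are tagged at different U lengths. It is the median over U lengths of the best Pearson correlation of a length with another one, and it was 0.166, 0.0775 and -0.00021 in Puf3 ΔRBD, against 0.922 to 0.986 in intact Puf3. The means were 0.0812 ± 0.083 in Puf3 ΔRBD and 0.963 ± 0.019 in intact Puf3 (exact permutation test, p = 0.0044, adjusted 0.0176). Puf3-dPup2 had a mean of 0.2696 ± 0.098, which was above Puf3 ΔRBD at p = 0.0333 in the exact permutation test but not after adjustment (0.114). After each library was thinned to the reads of the smallest of Puf3 ΔRBD, intact Puf3 and Puf3-dPup2 (495081 reads), this difference had an exact permutation p of 0.167.

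Gene by gene, 154 of 4519 expressed genes had a lower tagged share in Puf3 ΔRBD than in intact Puf3 (3.41% of the genes tested) and 1 had a higher one (0.0221%), by edgeR's quasi-likelihood test at an adjusted p under 0.05. Of the 154 genes, 138 (89.6%) had the motif, and the calls covered 16.5% of the motif genes and 0.435% of the others. In Puf3 ΔRBD these 154 genes had 2 tagged of 24545, 7 of 61260 and 10 of 48467 reads, and 140 of them had no tagged read at all. Their tagged share in intact Puf3 was 5.20% to 19.4% with a median of 7.57%. The tagged reads of both strains entered the choice, so neither the low count in Puf3 ΔRBD nor this share is separate evidence. On the same genes Puf3 ΔRBD had 0.0081% to 0.0206%, against 0.0210% to 0.0535% in Puf3-dPup2 (mean 0.0338% ± 0.0120). C-Swat had 0.0389% ± 0.0200.

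Without replicate 1, 3 or 4 of Puf3 ΔRBD, the test called 126, 104 and 109 genes lower, of which 126, 103 and 109 were among the 154. With only clone 1 or clone 2 of intact Puf3, 149 and 133 genes were called. At an unadjusted p under 0.05, 292 genes were lower (6.46%) and 29 higher (0.642%). A gene that was not called cannot be said to have kept its tags. COX10, a heme A farnesyltransferase, had 0 tagged of 58 reads in Puf3 ΔRBD and 12 of 344 in intact Puf3 (edgeR adjusted p = 0.921).

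Of the 10 called genes with the lowest log2 change of the tagged share as fitted by edgeR, which is no bound on the change, among those with at least 100 reads in every library, 8 encode mitochondrial proteins and had the motif. HSP60, described with the chaperones, was not among the 10. COX17 (YLL009C) encodes the copper chaperone of cytochrome c oxidase. It had 0 tagged of 172, 1029 and 833 reads in Puf3 ΔRBD, against 16.2% to 37.0% tagged with a median of 24.7% in intact Puf3. All intact libraries were thus far above all Puf3 ΔRBD libraries, and the pooled share was at least 179-fold lower, with the count of 0 set to the limit of 3 reads over the strain (edgeR adjusted p = 7.8e-55).

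TUF1 (YOR187W), the mitochondrial translation elongation factor, had the highest modification level of intact Puf3. It had 0 tagged of 235, 259 and 168 reads in Puf3 ΔRBD, against 22.3% to 47.4% with a median of 30.5% in intact Puf3, at least 80.0-fold lower (edgeR adjusted p = 5.3e-49). TIM10 (YHR005C-A), a small chaperone of the intermembrane space, had 0 tagged of 336, 1177 and 860 reads in Puf3 ΔRBD, against 14.5% to 40.8% in intact Puf3, at least 194-fold lower. For both genes no Puf3 ΔRBD library gave a tagged read.

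HSP10 (YOR020C) and HSP60 (YLR259C), the chaperonins of the mitochondrial matrix, kept a single tagged read each. HSP10 had 0 of 662, 0 of 2961 and 1 of 2508 reads tagged in Puf3 ΔRBD, against 30.6% to 46.9% with a median of 36.6% in intact Puf3. The ratio of the pooled shares was 2333 with a 95% counting interval of 419 to 92150. HSP60 had 0 of 496, 1 of 630 and 0 of 558 reads tagged in Puf3 ΔRBD, against 31.0% to 44.4% in intact Puf3, a ratio of 639 with an interval of 115 to 25233.

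TOM5, TOM20 and TOM22 encode subunits of the import complex of the outer membrane. TOM5 had 0 tagged of 584 reads in Puf3 ΔRBD, against 20.7% to 36.6% in intact Puf3, at least 58.1-fold lower. TOM20 had 0 of 769 reads in Puf3 ΔRBD, against 6.00% to 37.4% in intact Puf3, and TOM22 had 0 of 676 reads, against 8.92% to 38.0%. MRPL37, a protein of the large mitochondrial ribosomal subunit, had 0 of 717 reads in Puf3 ΔRBD, against 12.2% to 40.3% in intact Puf3. None of these 4 genes had a tagged read in Puf3 ΔRBD.

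The other 2 of the 10 lacked the motif within 300 nt and were weakly tagged but deeply covered. AHP1 (YLR109W), a thiol-specific peroxiredoxin, had 0 tagged of 12648 reads in Puf3 ΔRBD, against 0.165% to 10.3% with a median of 1.38% in intact Puf3, at least 95.2-fold lower. ALT2 (YDR111C), an alanine aminotransferase homolog, had 0 tagged of 24225 reads in Puf3 ΔRBD, against 0.266% to 2.06% in intact Puf3, at least 54.8-fold lower. Both passed the test in spite of their low share.

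**Figure D2:**
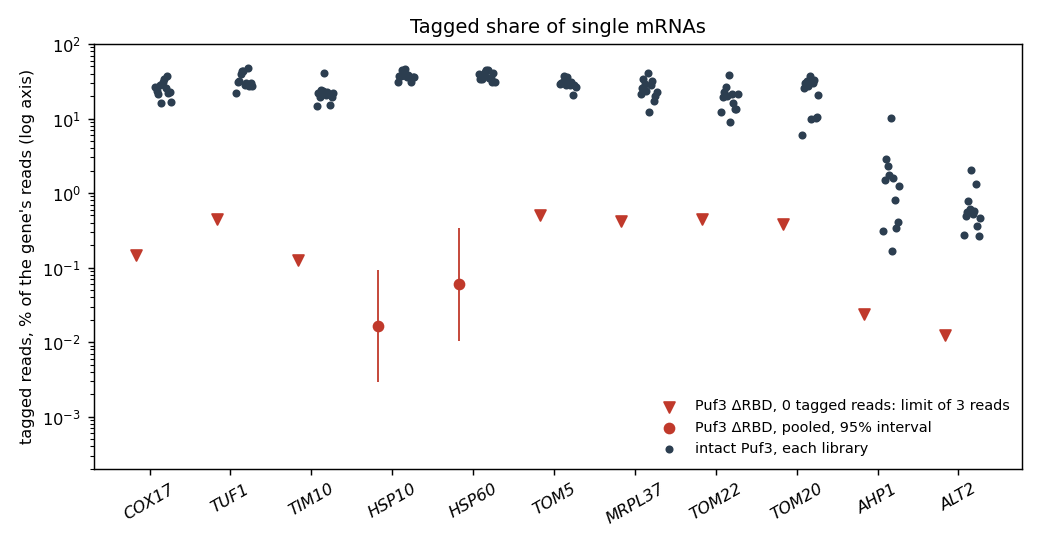
Tagged reads as percent of each gene's reads (log axis) for 11 mRNAs, with Puf3 ΔRBD pooled over 3 libraries on the left of each pair and the 12 intact libraries on the right. Triangles mark the limit of 3 reads where Puf3 ΔRBD had 0 tagged reads, and every mark of Puf3 ΔRBD lies below all intact points of its gene.

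The 16 called genes without the motif included further mRNAs of mitochondrial proteins. SSC1, the mitochondrial Hsp70, had 1 tagged of 2069 reads in Puf3 ΔRBD, against 1371 of 9511 in intact Puf3. PET9, the ADP/ATP carrier, had 0 of 851 reads, against 619 of 4805, and YAH1, a ferredoxin of the matrix, had 0 of 329 reads, against 349 of 2060. The others were YBR292C, PAM16, CPR3, TIM50, PHB2, HEM2, MGR2, UTP6, RPL18B, MTC7 and RPS22A beside AHP1 and ALT2. None of the 16 genes had a gene on the same strand whose coding sequence ends within 400 nt of the end of its own. Reads from the 3′ UTR of a gene farther away were not checked.

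The groups of mitochondrial genes that intact Puf3 tagged had shares in Puf3 ΔRBD that overlapped those of Puf3-dPup2. The 44 genes of the large mitochondrial ribosomal subunit, which all have the motif, had 3 tagged of 13225 reads, with shares of 0% to 0.0435% in Puf3 ΔRBD, against 10.9% to 30.3% in intact Puf3. Of these genes 40 were called lower, against 3.41% of all genes tested. The small subunit had 2 tagged of 9369 reads in Puf3 ΔRBD and a mean share of 14.95% ± 5.1 in intact Puf3, with 24 of 32 genes called lower. Mitochondrial import genes had 4 of 15952 reads tagged, against 13.4% ± 5.6, with 18 of 40 called, and cytochrome c oxidase assembly genes 1 of 6267 reads, against 16.03% ± 5.9, with 11 of 25 called.

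Mitochondrial chaperones and proteases had 3 tagged of 12316 reads in Puf3 ΔRBD, against 27.7% ± 4.3 in intact Puf3, with 8 of 13 genes called lower. Mitochondrial translation factors had 0 of 1724 reads in Puf3 ΔRBD, against 21.2% ± 7.4 in intact Puf3, with 3 of 17 called. In the classic Puf3 targets, 12 genes known from earlier work on Puf3, there were 0 tagged reads of 717, 1958 and 1519, which allows a share of up to 0.0715%, against 15.2% to 33.4% in intact Puf3. Of these, 8 were called lower, and COX10, COX11, MRS1 and TIM22 were not, with 58, 128, 92 and 136 reads in Puf3 ΔRBD. The Puf3-dPup2 libraries had 1 tagged of 8373 reads on the same 12 genes.

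Other groups were weakly tagged in intact Puf3. Subunits of the respiratory chain and ATP synthase had 1 tagged of 16285 reads in Puf3 ΔRBD, against 0.172% ± 0.179 in intact Puf3, and none of 39 genes was called. Enzymes of the TCA cycle had 0 of 3083 reads, against 0.0527% ± 0.0749, with none of 15 called, and ribosome biogenesis genes 1 of 26904 reads, against 0.0782% ± 0.0795, with none of 66 called. Cytosolic ribosomal proteins had 92 tagged of 816482 reads (0.0108% ± 0.0034) in Puf3 ΔRBD, 0.0428% ± 0.0330 in intact Puf3 and 0.0137% ± 0.0052 in Puf3-dPup2, with 2 of 138 genes called lower. No gene of mRNA decay, stress response, glucose repression or the Puf family was called. Of the 6 Puf family genes expressed, none had a tagged read in Puf3 ΔRBD (1117 reads). PUF3 itself had 0 of 225 reads tagged in Puf3 ΔRBD and 7 of 1244 in intact Puf3. Whether its reads show the deletion was not checked.

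**Figure D3:**
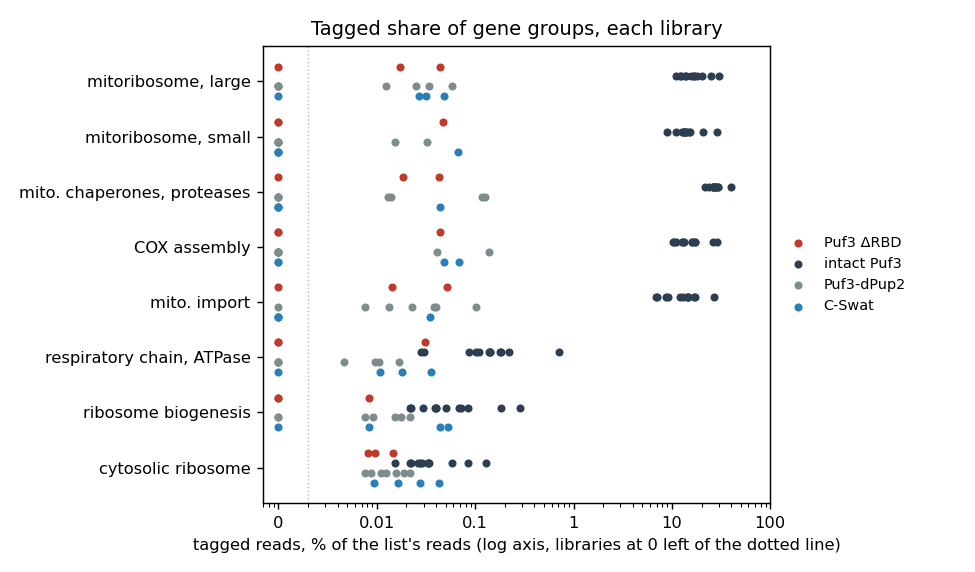
Tagged reads as percent of the reads of each gene group (log axis), 1 point per library and 1 row per strain, in the order Puf3 ΔRBD, intact Puf3, Puf3-dPup2 and C-Swat within each group, with libraries at 0 left of the dotted line. In the 5 upper groups intact Puf3 lies between 6.84% and 39.5% and all other points lie at or under 0.139%.

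A target was a gene with a modification level, the mean number of tagged Us per read of the gene, above 0.15. A minimum expression of 16 RPM was added here, and without it Puf3 ΔRBD had 10 targets and intact Puf3 had 279. With it Puf3 ΔRBD had 4 targets and intact Puf3 had 231, beside 1 in Puf3-dPup2 and 7 in C-Swat. None of the 4 (FMP16, PKH3, GID8 and YNR048W) was a target of intact Puf3 or had the motif, and 207 of the 231 had it. The 4 rested on 3, 1, 1 and 3 tagged reads in a single library each, and the highest level was 0.2004 in GID8, against 3.14 in TUF1 of intact Puf3. Without replicate 1, 3 or 4, Puf3 ΔRBD had 9, 5 and 7 targets. Of the 231 targets of intact Puf3, 218 had no tagged read in Puf3 ΔRBD, and the other 13 shared 15 tagged of 70859 reads, with a modification level of at most 0.0429.

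The 293 tagged reads of Puf3 ΔRBD fell on 198 genes, of which 145 had 1 read, 33 had 2 and 20 had 3 or more. No gene was tagged in all 3 libraries, and 22 were tagged in 2. The most tagged reads were on SAH1, the hydrolase of S-adenosylhomocysteine, with 7 of 807, 1 of 1675 and 0 of 1663 reads, and on ICS2, with 7 of 12, 0 of 7 and 0 of 4 reads. RPL26A and RPS24A, cytosolic ribosomal proteins, had 7 and 6 tagged reads, and TEF1, the elongation factor eEF1A, had 5 of 5255 reads in replicate 1 and none in the other libraries. On these genes nearly all tagged reads came from replicate 1.

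Against Puf3-dPup2, 0 of 4575 genes differed in tagged share in either direction (0% of the genes tested) by edgeR's test. Only 23 of these genes had at least 10 tagged reads over both strains. With so few tagged reads, most genes could not have been called, so the count of 0 does not show equal tagging. At an unadjusted p under 0.05, 25 genes were higher (0.546%) and 3 lower (0.0656%). With limma on log2 shares, 31 were called higher and 0 lower, but the median log2 change over all genes was 0.73 there. The counts added before limma raise the share of an untagged gene more where it has fewer reads, so these 31 calls do not show tagging. The gene called higher against intact Puf3 was STP3, named here after its values were seen. It had 4 of 56, 0 of 53 and 0 of 42 reads tagged in Puf3 ΔRBD and 0 of 921 reads in intact Puf3, with an edgeR adjusted p of 0.0084 that rests on replicate 1. Among genes with at least 100 reads in every Puf3 ΔRBD library, the highest modification level was 0.0285 in CUP1-2, a metallothionein in a repeated gene cluster, followed by RPT2, RPL26A, ASP3-2 and ADE6 at 0.0187 to 0.0239, and none of these was called higher.

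In Puf3 ΔRBD, 115 of the 293 tagged reads (39.2%) had 4 Us, against 7.80% in intact Puf3, 33.5% in Puf3-dPup2 and 32.5% in C-Swat, shares of pooled reads that were not tested. Of the others in Puf3 ΔRBD, 47 had 5, 56 had 6, 16 had 7, and each length of 8 to 13 had 6 to 13 reads. Reads with 6 Us were 19.1% of the tagged reads in Puf3 ΔRBD, 23.3% in intact Puf3, 5% in Puf3-dPup2 and 3.45% in C-Swat. Per library they were 0.00186%, 0.00225% and 0.00327% of reads in Puf3 ΔRBD, against at most 0.00114% in Puf3-dPup2 and 0.000906% in C-Swat. Reads with 13 Us were 3.07% of the tagged reads in Puf3 ΔRBD, 10.3% in intact Puf3, 18.3% in Puf3-dPup2 and 21.9% in C-Swat. These differences were not tested. Reads with 14 or 15 Us, outside the tagged window, were 0.0533%, 0.0039% and 0.0045% of reads in Puf3 ΔRBD, against 0.0732% to 0.669% in intact Puf3 (exact permutation test, p = 0.0044, adjusted 0.0176), and 0.0275% to 0.118% in Puf3-dPup2. Reads in the last bin of 16 Us were 4.80%, 8.71% and 5.05% in Puf3 ΔRBD, against 3.02% to 8.87% in intact Puf3, where the groups overlapped (exact permutation test, p = 0.413, adjusted 0.52).

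Reads with 1 to 3 Us made up 1.01%, 12.8% and 12.8% in Puf3 ΔRBD, against 0.748% to 3.84% in intact Puf3, 1.0004% to 3.93% in Puf3-dPup2 and 0.893% to 2.97% in C-Swat. Replicates 3 and 4 were thus above every other library and replicate 1 was not (against intact Puf3, exact permutation test, p = 0.0396, adjusted 0.119). In replicate 3, 8.15% of reads had 1 U and 4.48% had 2, and in replicate 4, 12.5% had 1 U and 0.340% had 2. These reads were not on motif genes in particular, which held 14.7% of the 1-U reads and 14.4% of the reads without U. The part of these reads in the tagged share was not tested, and counting from 5 Us left 0.0093%, 0.0068% and 0.0084% tagged in Puf3 ΔRBD.

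**Figure D4:**
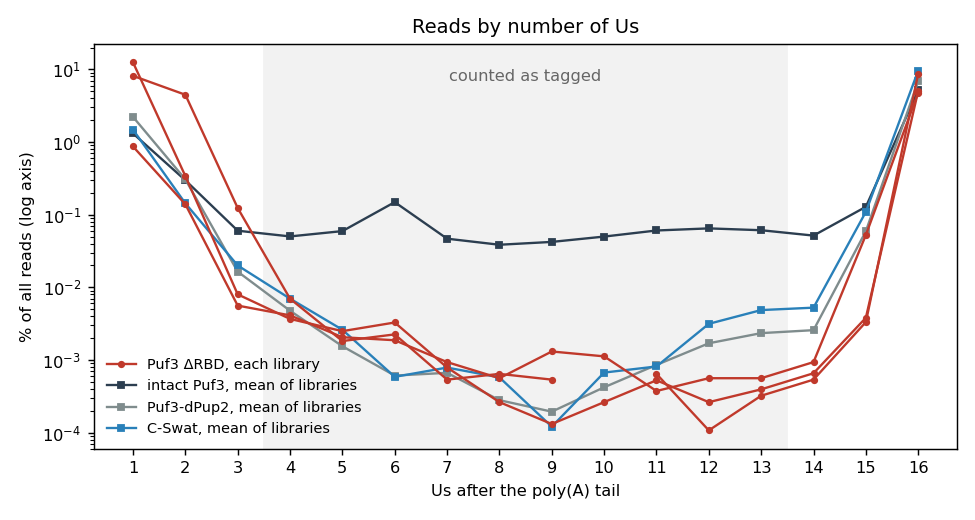
Percent of all reads (log axis) by the number of Us after the poly(A) tail, for each of the 3 Puf3 ΔRBD libraries and the mean of intact Puf3, Puf3-dPup2 and C-Swat, with the tagged lengths shaded and lengths without a read left out. Intact Puf3 runs above all other lines at 4 to 13 Us, and Puf3 ΔRBD replicates 3 and 4 start higher at 1 U.

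The second question was whether mRNA levels differed. Against intact Puf3, edgeR called 0 of 5156 genes higher (0%) and 1 lower (0.0194%), with 313 higher (6.07%) and 277 lower (5.37%) at an unadjusted p under 0.05, and DESeq2 called 13 and 22. The gene was GTR2, a GTPase of the EGO complex that acts on TORC1. It had 11.2, 18.2 and 13.1 RPM in Puf3 ΔRBD, on 6, 17 and 10 reads, against 25.05 to 50.7 RPM in intact Puf3, without overlap (log2 fold change -1.45 ± 0.23 (SE), edgeR adjusted p = 0.0221). The call was lost without replicate 1 or 4. Without replicate 1 or 3, 2 and 3 genes were called lower, without replicate 3, 4 genes were called higher, and without replicate 4 none was lower. Since whole cultures were measured, fewer cells and less RNA per cell cannot be told apart.

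The mRNAs that lost their tags had levels spread evenly around those of intact Puf3. None of the 154 was called, 79 lay above 0, and their median log2 fold change was 0.00, against -0.02 for all genes tested. In simulated data this test found 50% of genes raised 2-fold and 28% of genes lowered 2-fold. The lack of calls therefore does not show that single mRNAs kept their level. The classic targets had a median of 0.45 with 7 of 12 above 0, and the genes of the large mitochondrial ribosomal subunit 0.13 with 27 of 44 above 0. COX17 had 321, 1100.5 and 1091 RPM in Puf3 ΔRBD, against 160.2 to 986 RPM with a median of 391 in intact Puf3 (log2 fold change 0.85 ± 0.44, edgeR adjusted p = 0.464). TOM5 had a log2 fold change of -1.09 ± 0.29 (edgeR adjusted p = 0.153). With reads of 0 to 3 Us alone, the medians were 0.43 for the 154 genes and 0.59 for the large subunit. This takes out the tagged reads and also those with 14 to 16 Us. Tagged reads were 9.40% of the reads of the 154 genes in intact Puf3 and 0.0142% in Puf3 ΔRBD. For the large subunit they were 18.7% and 0.0227%. The removal thus lowers the intact counts more, so these medians do not show higher mRNA levels in Puf3 ΔRBD.

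Against the strains in which intact Puf3 carried no active Pup2, most of the same mRNAs had positive fold changes in Puf3 ΔRBD, but none passed the test. In simulated data the test found 24% of genes raised 2-fold over Puf3-dPup2 and 8% of those raised 2-fold over C-Swat. The 154 genes had a median log2 fold change of 0.60 over Puf3-dPup2, with 140 of 154 above 0, and of 0.48 over C-Swat, with 130 above 0, against -0.03 and -0.01 for all genes tested. At an unadjusted p under 0.05, 74 and 42 were higher, against 6.48% and 8.19% of all genes tested. These comparisons share the Puf3 ΔRBD libraries, so they are not independent of each other. The median held between 0.54 and 0.76 over Puf3-dPup2, and between 0.44 and 0.84 over C-Swat, across all alternatives tried. The reads in Puf3 ΔRBD also entered the call of the 154 genes, so genes with more reads there were more easily chosen. The 231 targets of intact Puf3, chosen without the Puf3 ΔRBD libraries, had medians of 0.53 and 0.43, with 197 of 231 and 182 of 229 above 0.

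The large mitochondrial ribosomal subunit had a median log2 fold change of 0.76 over Puf3-dPup2 and 0.62 over C-Swat, with 43 of 44 genes above 0 in each, and the small subunit 0.68 and 0.55. Motif genes as a whole had 0.16 and 0.18. The levels relative to the mean of Puf3-dPup2, corrected for the median of all genes, were 0.65 to 0.80 for the large subunit in the Puf3 ΔRBD libraries, 0.25 to 1.502 in intact Puf3, -0.15 to 0.15 in Puf3-dPup2 and 0.08 to 0.21 in C-Swat. Puf3 ΔRBD thus lay above every library of both controls, and above 9 of the 12 intact libraries, which were at 0.25 to 0.56. The other 3 intact libraries were at 0.76, 1.08 and 1.502. Puf3 Δnon-RBD had 0.86 to 1.37 in its 3 libraries, and its tagged share over the 154 genes was 14.8% to 24.6%.

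**Figure D5:**
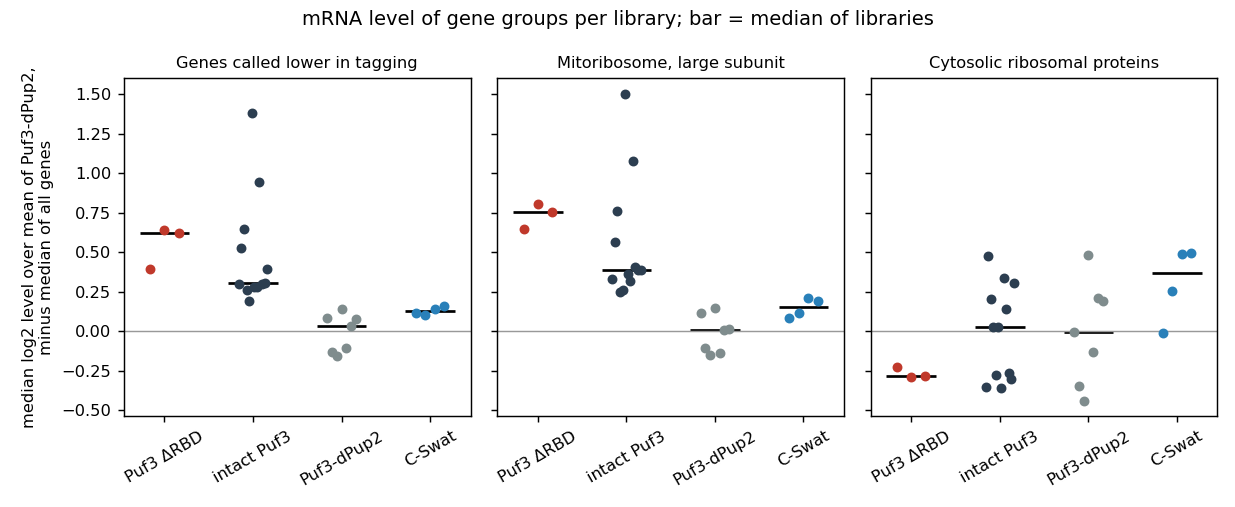
Median log2 mRNA level of 3 gene groups per library, relative to the mean of Puf3-dPup2 and to the median of all genes, with bars at the median of the libraries of a strain. The 154 genes and the large mitochondrial ribosomal subunit are above both controls in Puf3 ΔRBD and in intact Puf3, and cytosolic ribosomal proteins lie at -0.29 to -0.23 in Puf3 ΔRBD.

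Single genes differed in sign, and none of the tagged mRNAs named here passed the test. The log2 fold change of TOM5 was -0.43 ± 0.31 over Puf3-dPup2 (edgeR adjusted p = 0.565) and that of TOM22 was -0.11 ± 0.26 (edgeR adjusted p = 0.895), while COX17, HSP10 and HSP60 had positive values. COX17 had 112 to 251 RPM in Puf3-dPup2 and 136 to 279 RPM in C-Swat, below all Puf3 ΔRBD libraries, with log2 fold changes of 2.02 ± 0.35 (edgeR adjusted p = 0.0983) and 1.74 ± 0.42 (edgeR adjusted p = 0.107). Over Puf3-dPup2 it was past the threshold in DESeq2, with library size scaling, in the fit of 4 strains and without replicate 1, and its adjusted p ranged over 0.000535 to 0.339 across the alternatives. HSP10 had 1234, 3167 and 3284 RPM in Puf3 ΔRBD, against 782 to 1275 RPM in Puf3-dPup2, where replicate 1 of Puf3 ΔRBD overlapped (log2 fold change 1.23 ± 0.29, edgeR adjusted p = 0.15). HSP60 had 925, 674 and 731 RPM in Puf3 ΔRBD, against 186 to 581 RPM in Puf3-dPup2, without overlap (1.07 ± 0.27, edgeR adjusted p = 0.181).

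Against Puf3-dPup2, 1 of 5232 genes was called higher (0.0191%) and 0 lower (0%), with 339 higher and 331 lower (6.33%) at an unadjusted p under 0.05, and DESeq2 called 47 and 34. The gene was ICT1, a lysophosphatidic acid acyltransferase without the motif, at 72.7, 78.1 and 90.3 RPM in Puf3 ΔRBD and 11.3 to 31.4 RPM in Puf3-dPup2 (log2 fold change 1.92 ± 0.29, edgeR adjusted p = 0.0354). Intact Puf3 had 16.1 to 61.4 RPM and C-Swat 10.1 to 31.7 RPM, so Puf3 ΔRBD was above all of these libraries too. The call was lost without replicate 3 or 4, where 0 genes were higher, and without replicate 1, 6 genes were higher and 5 lower.

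Against C-Swat, 3 of 4948 genes were called higher (0.0606%) and 5 lower (0.101%), with 405 higher and 423 lower (8.55%) at an unadjusted p under 0.05. URA1, the dihydroorotate dehydrogenase of pyrimidine synthesis, had 1356, 1536 and 1544 RPM in Puf3 ΔRBD and 207 to 308 RPM in C-Swat (log2 fold change 2.11 ± 0.23, edgeR adjusted p = 0.0039). Intact Puf3 had 992 to 1468 RPM and Puf3-dPup2 952 to 1519 RPM of it, so C-Swat was the strain that stood apart. URA3, of the same pathway, had 0, 1 and 1 reads in Puf3 ΔRBD and 49.8 to 78.5 RPM in C-Swat, and intact Puf3 and Puf3-dPup2 had at most 6.22 RPM. The transporter HXT1 was also higher, at 718, 360.4 and 395 RPM in Puf3 ΔRBD and 56.9 to 70.7 RPM in C-Swat. So was MIG2, a repressor that acts in glucose repression.

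IMD2, an IMP dehydrogenase, had 35.4, 46.0 and 35.4 RPM in Puf3 ΔRBD and 113 to 204 RPM in C-Swat (log2 fold change -2.36 ± 0.31, edgeR adjusted p = 0.0097). OPI3, a methyltransferase of phosphatidylcholine synthesis, had 520.2, 405 and 492 RPM in Puf3 ΔRBD and 1275 to 1676 RPM in C-Swat (-2.01 ± 0.26), and TPO4 and YHB1 were lower as well (-2.42 ± 0.38 and -1.58 ± 0.24). None of the 8 genes was a target of intact Puf3 at 16 RPM or more, although URA3, below that minimum, had 9 tagged of 35 reads in intact Puf3. The number of calls rose when replicate 1 was left out: 37 genes were then called higher and 35 lower. Without replicate 3 or 4 of Puf3 ΔRBD 1 gene was lower each, and without replicate 5, 6 or 7 of C-Swat 3, 18 and 15 genes were.

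Groups that intact Puf3 tags weakly had medians of similar size against the controls, and none of their genes was called. Cytosolic ribosomal proteins had a median log2 fold change of -0.27 against intact Puf3, -0.27 against Puf3-dPup2 and -0.57 against C-Swat, with 20, 17 and 3 of 138 genes above 0. Stress response genes had medians of 0.06, -0.66 and -1.10 against these strains, and ribosome biogenesis genes 0.05, 0.36 and 0.64. The part of such differences between the cultures in the higher level of mitochondrial mRNAs was not tested.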

How the data were processed

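The deposited files hold, per library, the counts of reads per gene for each U length from 0 to 16 over 6629 genes. Per the labels and methods, the authors selected poly(A) RNA in 2 rounds, ligated a 3′ adapter with a UMI, fragmented by Tn5, aligned read 1 to R64 with Bowtie2, counted Us on read 2 and counted sense reads with bedtools, 300 nt upstream to 100 nt downstream of the termination site. How UMIs entered the counts is not given in the sources used here. The counts were not normalized by the authors. They limit precision as the intervals show.

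RPM (reads scaled to a library total of 1000000), tagged shares and modification levels were computed from the counts. Tagged reads per gene were tested with edgeR 4.0.16 (quasi-likelihood, R 4.3.3), with the log of the gene's reads as offset, over genes with a mean of at least 16 RPM. mRNA levels were tested with edgeR, TMM and filterByExpr. All p-values were Benjamini-Hochberg adjusted over all genes tested. Library values were compared by two-sided exact permutation tests (scipy 1.17.1). A 95% Wilson interval was used for shares. The scripts were tested on simulated data. DESeq2 1.42.0 and limma 3.58.1, with 0.5 and 1 added to tagged and all reads, were alternatives. Motifs were searched in R64.

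Named genes were PUF3, the Puf family, the classic targets, the 10 lowest and up to 5 highest called changes of the tagged share and 5 highest modification levels of Puf3 ΔRBD, each at 100 reads or more per library, called mRNA changes without overlap at 16 RPM or more, and the 2 most tagged genes of each mitochondrial list. Others were named after their values were seen. Members and gene lists were chosen with earlier results of these data known.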

Additional observations from a re-analysis of the deposited data

Results flagged for a closer look

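In replicates 3 and 4 of Puf3 ΔRBD, 12.8% and 12.8% of reads carried 1 to 3 Us, a length range outside the tagged window, against at most 3.93% in the libraries of Puf3-dPup2 and C-Swat. Replicate 1 of Puf3 ΔRBD had 1.01%. The source of these reads was not tested.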

How the results depend on the processing

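The lower tagged share of Puf3 ΔRBD against intact Puf3, over all genes and over motif genes, kept its direction under all alternatives except 4 to 16 Us over all genes, where the difference was +0.271 percentage points (exact permutation test, p = 0.809), since this window adds the 16-U bin. Over motif genes this window gave 6.24% in Puf3 ΔRBD and 10.42% in intact Puf3, 1.67-fold with overlapping groups (exact permutation test, p = 0.044), in place of 289-fold, and 3 to 13 Us gave 64.6-fold without overlap. Against Puf3-dPup2 and C-Swat the difference in tagged share changed sign with 3 to 13 Us, to +0.0290 and +0.0177 points. That sign rested on replicate 3, since replicates 1, 3 and 4 of Puf3 ΔRBD had 0.0190%, 0.137% and 0.0200% with this window. The means were 0.0298% in Puf3-dPup2 and 0.0411% in C-Swat. With 4 to 13 Us, the leave-outs of Puf3 ΔRBD gave -0.000604 to 0.000271 points against Puf3-dPup2. The difference in binding reliability from Puf3-dPup2 was -0.155 after thinning, and -0.231 to -0.148 with a replicate left out. No paired analysis was possible because the titles of Puf3 ΔRBD and intact Puf3 share no library number and those of Puf3 ΔRBD name no clone.

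Genes called lower in tagged share were 231 with at least 10 tagged reads, which included all 154, 178 with limma, 166 in the fit of 4 strains, and 145 without an expression filter or with 5 to 13 Us. Those called higher were 0 with at least 10 tagged reads, with 5 to 13 Us and with 1 clone of intact Puf3, 2 without an expression filter and in the fit of 4 strains, 19 with limma, and 0 to 2 with a replicate left out. STP3 had no value with 5 to 13 Us or without replicate 1. Against Puf3-dPup2, limma called 31 genes higher and the fit of 4 strains 1. In limma the median log2 change over all genes was 0.37 against intact Puf3 and 0.73 against Puf3-dPup2, since its added counts weigh more where reads are few. Its higher calls therefore cannot be read as tagging. For mRNA levels against intact Puf3, DESeq2 called 13 genes higher and 22 lower, reads with 0 to 3 Us 5 and 3, and the fit of 4 strains 7 and 6, and no gene was lower with library size scaling or 1 clone. Leave-outs gave 0 to 4 higher and 0 to 3 lower. Against Puf3-dPup2, DESeq2 called 47 and 34, the fit of 4 strains 21 and 11, library size scaling 2 higher, and leave-outs 0 to 6 higher and 0 to 5 lower. Against C-Swat, DESeq2 called 68 and 86, library size scaling 101 and 18, no filter 12 and 25, the fit of 4 strains 114 and 100, and leave-outs 2 to 37 higher and 1 to 35 lower. Library size scaling moved the median log2 fold change of all genes by 0.10 against intact Puf3, 0.13 against Puf3-dPup2 and 0.35 against C-Swat. Targets of Puf3 ΔRBD were 9 above a level of 0.1, 0 above 0.3, 10 without an expression filter and 5 to 9 in the leave-outs. The cause was not tested, and the depth of 3 libraries limits calls for weakly tagged genes.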
